A study of Gallus gallus with 6 samples.

Results

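The Notch pathway was examined through 10 genes that were listed by name: the ligands DLL1, JAG1 and JAG2, the receptors NOTCH1 and NOTCH2, the receptor modifier LFNG, and the targets HES5, HEY1, HEY2 and NRARP. All 10 names were matched, each to a single gene, out of 24356 genes in the count table. In Notch signalling a ligand on a cell binds a receptor on its neighbour, the receptor is cut by proteases, and its intracellular part enters the nucleus, where it joins the DNA-binding protein RBPJ and switches on repressors of the HES and HEY families. In the developing inner ear the pathway acts in the choice between neuronal, sensory and supporting fates, and in mouse embryos it also influences how much of the cranial ectoderm becomes otic placode.

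RNA was sequenced from sorted head ectoderm cells of chick embryos that had been electroporated at head fold stages and grown ex ovo for 16 to 24 hours at 38 °C. The 3 Sox8OE samples carried pCES-Sox8-mCherry, which expresses the transcription factor Sox8 with a red fluorescent protein, and pTK-Lmx1aE1-EGFP, a green reporter driven by an enhancer active in the otic placode. The 3 Control samples carried pCES-mCherry and pCES-EGFP, in which both colours are constitutive. Cells with both colours were sorted after the placode of the embryo's own ear had been cut away in both groups, so Sox8OE cells were selected for activity of an otic enhancer and Control cells were not, and the effects of Sox8 and of this selection cannot be told apart. The number of embryos behind each sample is not given in the sources used here. The study's methods call the replicates biological, and nothing more is said of their origin. The p-values therefore set group differences against the spread between these samples, which the fits estimate with information shared across genes.

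Total counts per sample were 26326573 to 43288221 in Sox8OE and 35377763 to 46586658 in Control, and the counts of the 10 genes ran from 64 to 70994. Levels are given below as normalised counts, obtained by dividing each count by its sample's size factor from DESeq2. They compare samples at a gene, not genes with each other, because gene length was not taken into account. SOX8, the gene on the construct, had 8554, 9889 and 9138 normalised counts in Sox8OE replicates 1, 2 and 3, against 854, 1685 and 968 in Control replicates 1, 2 and 3. Sox8OE replicate 1 stood apart from the other samples of its group: in a principal component analysis of the most variable genes its score on the leading axis, with 86.9% of the variance, was -8.91, with Sox8OE replicates 2 and 3 at 39.7 and 28.7 and the Control samples at -26.4 to -12.2. Fits without this sample are given below beside the results.

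None of the 10 genes passed both thresholds of the study, which are an adjusted p under 0.05 in DESeq2 together with a log2 fold change beyond 1.5 in either direction. Over all 16032 genes with an adjusted p, 4.28% passed both, 3.32% higher and 0.961% lower in Sox8OE. HEY1 was the only gene of the 10 with an adjusted p under 0.05, in a table in which 5.24% of genes reached that level (3.94% higher and 1.3% lower), and 6 of the 10 had an unadjusted p under 0.05 with DESeq2, against 5 with edgeR and 5 with limma voom. Over all genes the shares with an unadjusted p under 0.05 were 16.8% with DESeq2, 16.4% with edgeR and 19% with limma voom. The DESeq2 share was over 21390 genes, and the others over the 14862 left by an expression filter. With a filter of 10 counts in 3 samples, DESeq2 had 6 of the 10, beside 22% of 14917 genes. The 10 genes had no common direction: 5 were higher and 5 lower in Sox8OE by their fitted fold change, with a median log2 fold change of 0.26, beside 0.08 over all genes tested. All 3 Sox8OE samples lay on 1 side of all 3 Control samples at 4 genes, HEY1 above and JAG2, HES5 and HEY2 below, while 19.2% of all genes tested had groups that did not overlap, 10.1% with Sox8OE above and 9.09% with it below. In bulk samples, fewer cells of a type and less RNA per cell cannot be told apart.

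**Figure D1:**
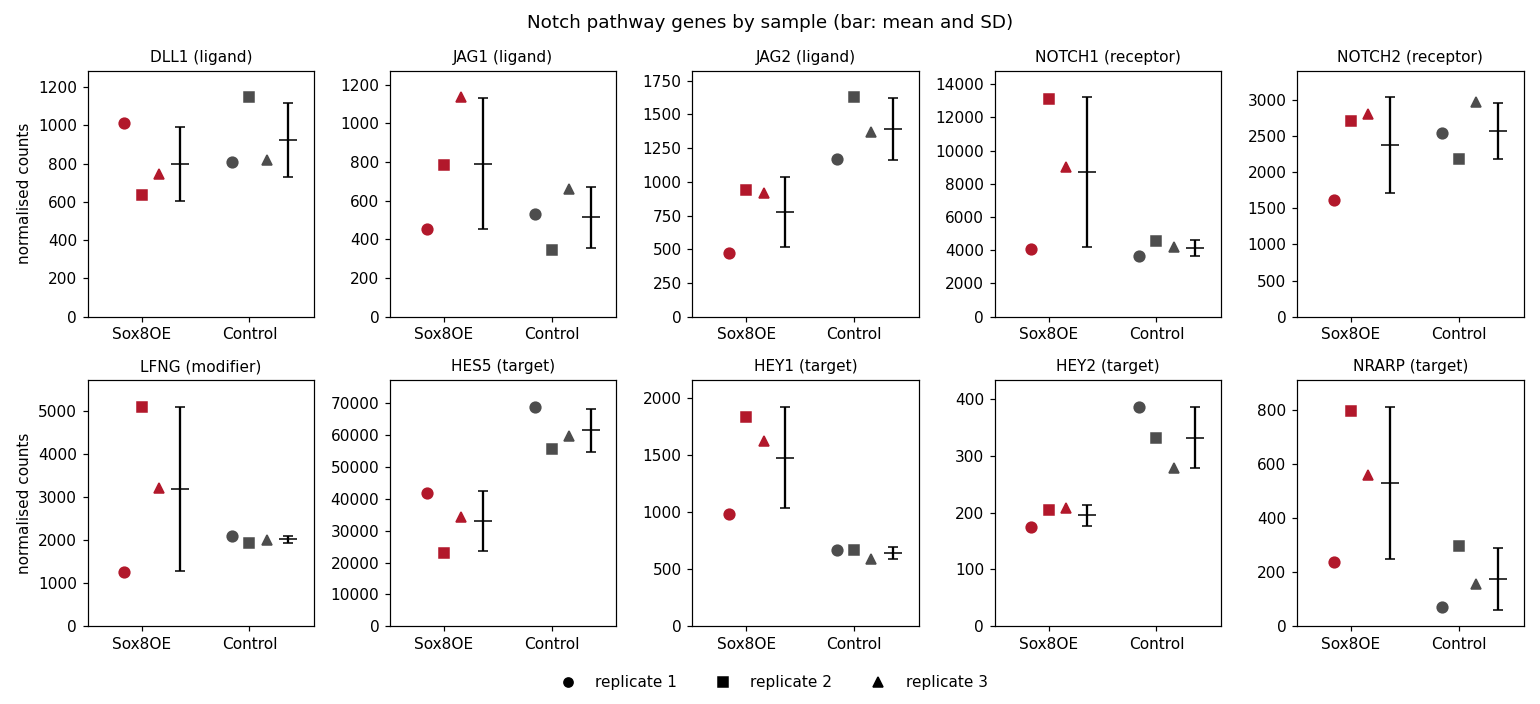
Normalised counts of the 10 Notch pathway genes in each sample, with Sox8OE to the left of Control in every panel, a marker shape for each replicate number, and a bar for the mean and SD of 3 samples. Groups are apart at JAG2, HES5, HEY1 and HEY2, and at NOTCH1 and LFNG Sox8OE replicate 1 lies within or below the range of the Control samples while replicates 2 and 3 lie above them.

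**Figure D2:**
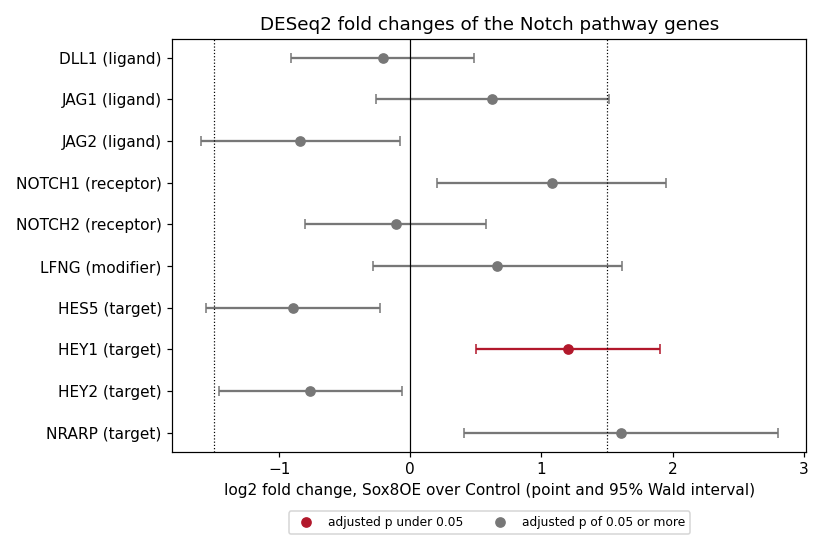
DESeq2 log2 fold changes of Sox8OE over Control with 95% Wald intervals. HEY1 at 1.20 has an adjusted p under 0.05, the dotted lines mark a log2 fold change of 1.5 in either direction, and the intervals of DLL1, JAG1, NOTCH2 and LFNG include 0.

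Among the ligands, no adjusted p was under 0.05. DLL1 (ENSGALG00000011182), the Delta ligand that nascent neuronal cells present to their neighbours, had 1014, 634 and 744 normalised counts in Sox8OE replicates 1, 2 and 3, against 807, 1147 and 816 in Control replicates 1, 2 and 3. The groups overlapped throughout, with a log2 fold change of -0.21 ± 0.36 (SE), a 95% interval of -0.91 to 0.48 and a DESeq2 adjusted p of 0.74. JAG1 (ENSGALG00000009020), a Serrate-type ligand found in the prosensory patches of the chick and mouse ear, had 454, 786 and 1135 in Sox8OE, against 533, 345 and 662 in Control. Only Sox8OE replicates 2 and 3 were above every Control sample, and the log2 fold change was 0.63 ± 0.45 (SE), with an interval of -0.27 to 1.52 and an adjusted p of 0.40.

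JAG2 (ENSGALG00000011696), the other Serrate-type ligand, had 475, 942 and 915 normalised counts in Sox8OE, against 1170.5, 1629 and 1368 in Control. All 3 Sox8OE samples were below the lowest Control sample, and replicate 1, with 0.342 of the Control mean, was the lowest. The means were 777 ± 262 in Sox8OE and 1389 ± 230.0 in Control (SD, n = 3 each). The log2 fold change of -0.84 ± 0.39 (SE) had an adjusted p of 0.18 in DESeq2, so the difference did not pass the test over all genes. With total counts as the scale, Sox8OE replicate 3 lay above Control replicate 1.

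Neither receptor had an adjusted p under 0.05, and their fold changes were not tested against each other. NOTCH1 (ENSGALG00000002375), the receptor of most neural and otic progenitors, had 4080.2, 13076 and 8988 normalised counts in Sox8OE replicates 1, 2 and 3, against 3648, 4548 and 4193 in Control. Sox8OE replicate 1 lay inside the Control range, at 0.988 of the Control mean, while replicates 2 and 3 stood at 3.17 and 2.18 times that mean. The log2 fold change was 1.08 ± 0.44 (SE), with an interval of 0.21 to 1.95 and a DESeq2 adjusted p of 0.13. NOTCH2 (ENSGALG00000002922), the second receptor, had 1613, 2709 and 2815 in Sox8OE, against 2549.8, 2192 and 2973 in Control. Its log2 fold change of -0.11 ± 0.35 (SE) had an interval of -0.80 to 0.58 and an adjusted p of 0.87. With total counts as the scale it was 0.13, so its sign was not settled.

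LFNG (ENSGALG00000038515) encodes Lunatic fringe, a Golgi enzyme that adds a sugar to Notch receptors and shifts their response towards Delta ligands. It had 1273, 5093 and 3227 normalised counts in Sox8OE replicates 1, 2 and 3, against 2106, 1941 and 2008 in Control. The Control samples were close together, with a coefficient of variation of 4.11%, whereas that of Sox8OE was 59.7%, since replicate 1 was the lowest of all 6 samples and replicates 2 and 3 the highest. The log2 fold change was 0.66 ± 0.48 (SE) and the DESeq2 adjusted p was 0.40.

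Among the targets, HEY1 rose. HEY1 (ENSGALG00000035031), a repressor of the hairy-related family that is switched on by the cleaved receptor, had 981, 1836 and 1626 normalised counts in Sox8OE, against 673, 672 and 586 in Control. The lowest Sox8OE sample, replicate 1, was still 1.52 times the Control mean. Means were 1481 ± 446 in Sox8OE and 644 ± 50.1 in Control (SD, n = 3 each). On the log2 scale the fold change was 1.20 ± 0.36 (SE), and the adjusted p in DESeq2 was 0.023. HEY1 had a log2 fold change of 1.01 to 1.23 without Sox8OE replicate 2 or 3 or without any 1 of the Control samples, where the adjusted p was 0.099 to 0.26, and 1.41 without Sox8OE replicate 1, where it was 9.0e-08. The edgeR adjusted p was 0.17.

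NRARP (ENSGALG00000027231) encodes an ankyrin repeat protein that is induced by Notch and restrains it in turn. It had 237, 799 and 559 normalised counts in Sox8OE, against 70.7, 297 and 156 in Control. Its fold change was the largest of the 10 genes, a log2 fold change of 1.61 ± 0.61 (SE), but Sox8OE replicate 1 was below Control replicate 2 and the DESeq2 adjusted p was 0.099. Both groups were spread widely, with coefficients of variation of 53.1% in Sox8OE and 65.4% in Control. Leaving out 1 sample moved the log2 fold change between 1.17, without Sox8OE replicate 2 and with an adjusted p of 0.51, and 2.21, without Control replicate 2 and with an adjusted p of 0.022. Without Control replicate 1 it was 1.22, with an adjusted p of 0.41.

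HES5 and HEY2 lay lower in Sox8OE. HES5 (ENSGALG00000001141), the repressor that keeps neural progenitors undifferentiated, had 41919, 22916 and 34308 normalised counts in Sox8OE, against 68966, 55709.6 and 59931 in Control. Every Sox8OE sample was below every Control sample, at 0.681, 0.372 and 0.558 of the Control mean. The log2 fold change of -0.90 ± 0.34 (SE) had an interval of -1.56 to -0.23 and a DESeq2 adjusted p of 0.097. How reads shared between related genes were counted was not given in the sources used here, which limits this value if HES5 has close copies.

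HEY2 (ENSGALG00000034716), a relative of HEY1 with roles in heart and vessel development, had 174, 204 and 209 normalised counts in Sox8OE, against 387, 331 and 279 in Control. It was the steadiest of the 10 genes within Sox8OE, with a coefficient of variation of 9.65%, and all 3 samples lay under the Control range. The log2 fold change was -0.76 ± 0.36 (SE) and the DESeq2 adjusted p was 0.19.

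The order of the Sox8OE samples was next compared across the genes. Relative to the Control mean, replicate 1 was the lowest of its group at JAG1, JAG2, NOTCH1, NOTCH2, LFNG, HEY1, HEY2 and NRARP, and the highest at DLL1 and HES5. Without replicate 1, the groups did not overlap at 9 of the 10 genes, beside 60.9% of genes tested in that fit, and 6 of the 10, JAG1, NOTCH1, LFNG, HES5, HEY1 and NRARP, had a DESeq2 adjusted p under 0.05. In that fit 39.4% of all genes with an adjusted p reached that level, 17.8% higher and 21.6% lower in Sox8OE, and 18.2% passed both thresholds. The log2 fold changes were then 0.89 for JAG1, 1.41 for NOTCH1, 1.03 for LFNG, -1.12 for HES5, 1.41 for HEY1 and 1.95 for NRARP, the last being the only one past both thresholds. At JAG2 the difference was smaller without replicate 1, with a log2 fold change of -0.59 and an adjusted p of 0.051.

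**Figure D3:**
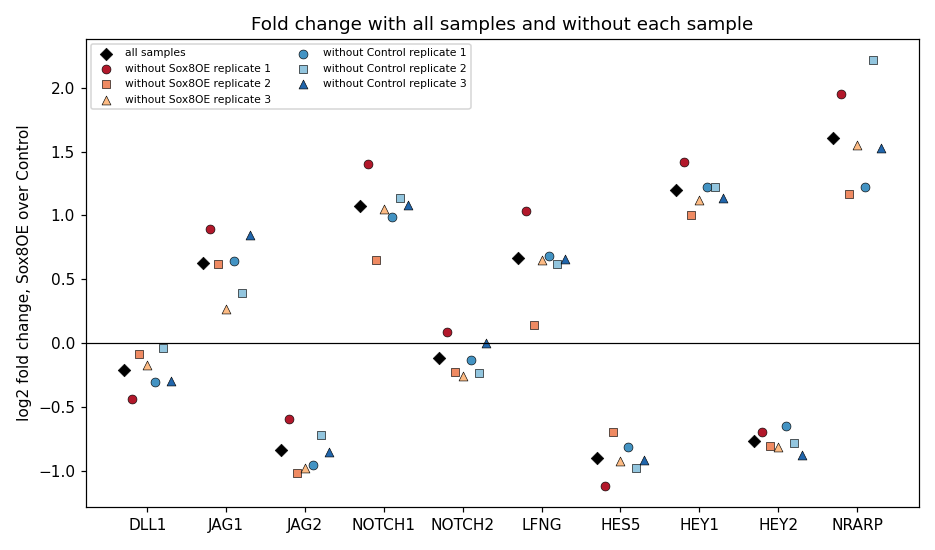
DESeq2 log2 fold change of Sox8OE over Control for each gene, with all samples (diamonds) and without each of the 6 samples in turn. Without Sox8OE replicate 1 the value of NOTCH1 was 1.41 and without Sox8OE replicate 2 it was 0.65, and NOTCH2 is the gene of the 10 whose values fall on both sides of 0.

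Ratios of related genes within a sample do not depend on the size factor, and gene length cancels when the same ratio is compared between samples. Of these, 5 were computed, chosen after the values had been seen and given as a description without a test. JAG1 counts per JAG2 count were 0.955, 0.834 and 1.24 in Sox8OE replicates 1, 2 and 3, against 0.455, 0.212 and 0.484 in Control. NOTCH1 per NOTCH2 was 2.53, 4.83 and 3.19 in Sox8OE, against 1.43, 2.08 and 1.41 in Control. HEY1 per HEY2 was 5.64, 8.98 and 7.79 in Sox8OE, against 1.74, 2.03 and 2.10 in Control. In these 3 pairs Sox8OE replicate 1 stood on the same side of Control as the other samples of its group. Its JAG1 and NOTCH1 levels by themselves lay inside the Control range, while its JAG2 and NOTCH2 levels were 0.342 and 0.627 of the Control mean. NOTCH2 was at 1.05 and 1.09 of that mean in Sox8OE replicates 2 and 3, where NOTCH1 was higher. The NOTCH1 per NOTCH2 ratio of replicate 1 thus parted from Control through its denominator, unlike those of replicates 2 and 3.

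HEY1 per HES5 was 0.0234, 0.0801 and 0.0474 in Sox8OE, against 0.00976, 0.0121 and 0.00978 in Control. LFNG per RFNG, the gene for Radical fringe, was 2.07, 3.56 and 3.63 in Sox8OE, against 6.83, 4.51 and 4.34 in Control, so this ratio was lower in Sox8OE. The groups did not overlap in any of the 5 ratios. For HEY1 per HEY2 and HEY1 per HES5 this was fixed beforehand. By itself HEY1 lay above Control in every Sox8OE sample, and HEY2 and HES5 lay below. For JAG1 per JAG2 and LFNG per RFNG it was not fixed, but the denominators were already apart. By themselves, JAG2 lay below and RFNG above Control in every Sox8OE sample. Over all pairs of the 12094 tested genes with at least 10 counts in every sample, groups did not overlap in 22% of ratios. That share covers pairs taken whatever their values, so it is no yardstick for 5 pairs chosen after the values had been seen.

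**Figure D4:**
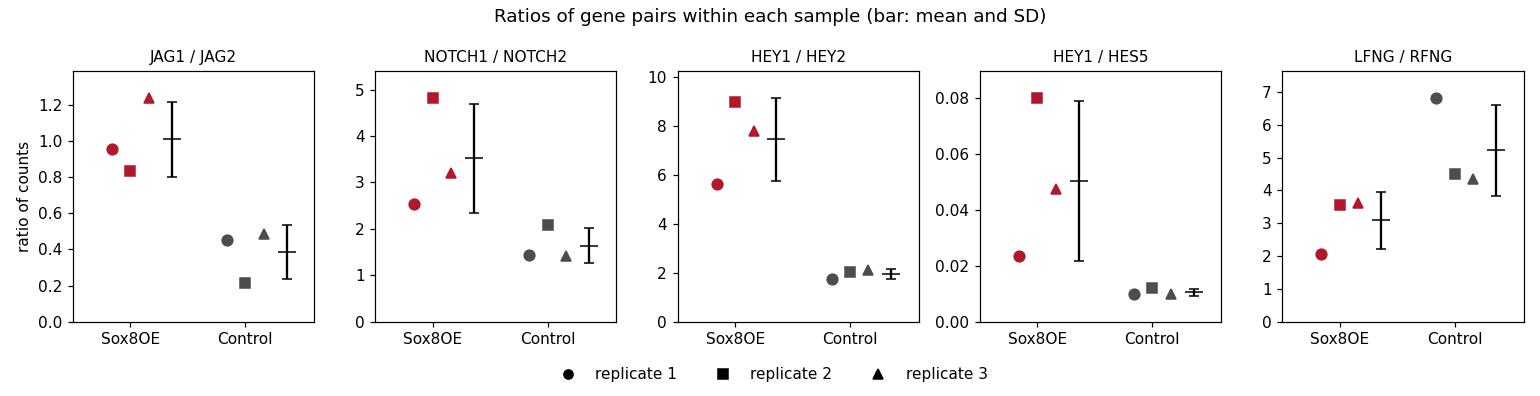
Ratio of the counts of related gene pairs in each sample, with Sox8OE to the left of Control and a bar for the mean and SD of 3 samples. The 2 groups are apart in each panel, with Sox8OE above Control except for LFNG over RFNG.

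The rest of the pathway was described from a list of 47 other genes, of which 39 were matched and 38 had an adjusted p. Of these, 2 were higher in Sox8OE at an adjusted p under 0.05 and none was lower, beside 5.24% of all genes at that level. An unadjusted p under 0.05 was found at 11 with DESeq2 and at 6 each with edgeR and limma voom. The shares of all genes given above for these tests, over unlike sets of genes, were 16.8%, 16.4% and 19%. With a filter of 10 counts in 3 samples, DESeq2 had 10 such genes, beside 22% of all genes. The 1 gene past both thresholds, beside 4.28% of all genes, was HEYL (ENSGALG00000034986), the third HEY family repressor. It had 1103, 2532 and 2259 normalised counts in Sox8OE, against 453, 749 and 585 in Control, and every Sox8OE sample was above every Control sample. The log2 fold change was 1.72 ± 0.42 (SE) and its adjusted p in DESeq2 was 0.0029. HEYL lost its call with edgeR and with limma voom, at adjusted p of 0.12 and 0.15, and without Sox8OE replicate 3, Control replicate 1 or Control replicate 3, at 0.064 to 0.091. Without Sox8OE replicate 2 the adjusted p was 0.049 and the log2 fold change of 1.48 fell short, and without Sox8OE replicate 1 HEYL was at 1.99 with an adjusted p of 2.6e-11. In that last fit 19 of the other pathway genes had an adjusted p under 0.05 and 8 passed both thresholds, beside the shares of 39.4% and 18.2% given above.

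The other was RFNG (ENSGALG00000002841), a fringe enzyme of the same kind as LFNG, with 615, 1431 and 889 normalised counts in Sox8OE, against 308, 430.0 and 462 in Control. Its log2 fold change of 1.29 ± 0.42 (SE) had a DESeq2 adjusted p of 0.046, which was 0.20 with edgeR and 0.12 to 0.42 when any 1 sample other than Sox8OE replicate 1 was left out. Without Sox8OE replicate 1, RFNG passed both thresholds, with a log2 fold change of 1.52 and an adjusted p of 2.2e-05. MFNG (ENSGALG00000012442), the third fringe gene, was scarce and unevenly detected, with 0.861, 1.10 and 35.5 in Sox8OE, against 122, 18.0 and 0 in Control. Its DESeq2 adjusted p was 0.49. DLL4 (ENSGALG00000008514), the Delta ligand of sprouting vessels, was also scarce, with 0, 40.7 and 15.1 in Sox8OE, against 9.95, 21.2 and 64.6 in Control.

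In the nucleus, RBPJ (ENSGALG00000014365) had 704, 680.3 and 657 normalised counts in Sox8OE, against 929.5, 915 and 1040.1 in Control. The Sox8OE samples were close together and all below Control, but the log2 fold change of -0.50 ± 0.29 (SE) had a DESeq2 adjusted p of 0.28. Of the 9 nuclear genes measured, none had an adjusted p under 0.05. HES1 (ENSGALG00000028015), a HES family target that oscillates in progenitors, had 1109, 3418 and 1716 in Sox8OE, against 616, 1553 and 744 in Control. Its log2 fold change was 1.10 ± 0.52 (SE), at an adjusted p of 0.20, and without Sox8OE replicate 1 it was 1.39, at 0.0021. HES4 (ENSGALG00000002055), known in chick as hairy1, had 6139, 5432 and 4636 in Sox8OE, against 7181, 6134 and 6371 in Control. Its log2 fold change was -0.28 ± 0.29 (SE), at an adjusted p of 0.56.

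Genes for ligand endocytosis, for receptor cleavage and for restraint of the receptor had no adjusted p under 0.05, with 4, 7 and 7 genes measured, of which DTX1, in the last group, had no adjusted p. Of the 39 other pathway genes, the groups did not overlap at 4 with Sox8OE above and 1 with it below. Over all genes tested the shares were 10.1% and 9.09%. Besides HEYL, RFNG and RBPJ, the genes were ADAM10 and FURIN, proteases that cut the receptor. Both were higher in Sox8OE, with DESeq2 adjusted p of 0.26 and 0.23, and are named because of these values.

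**Figure D5:**
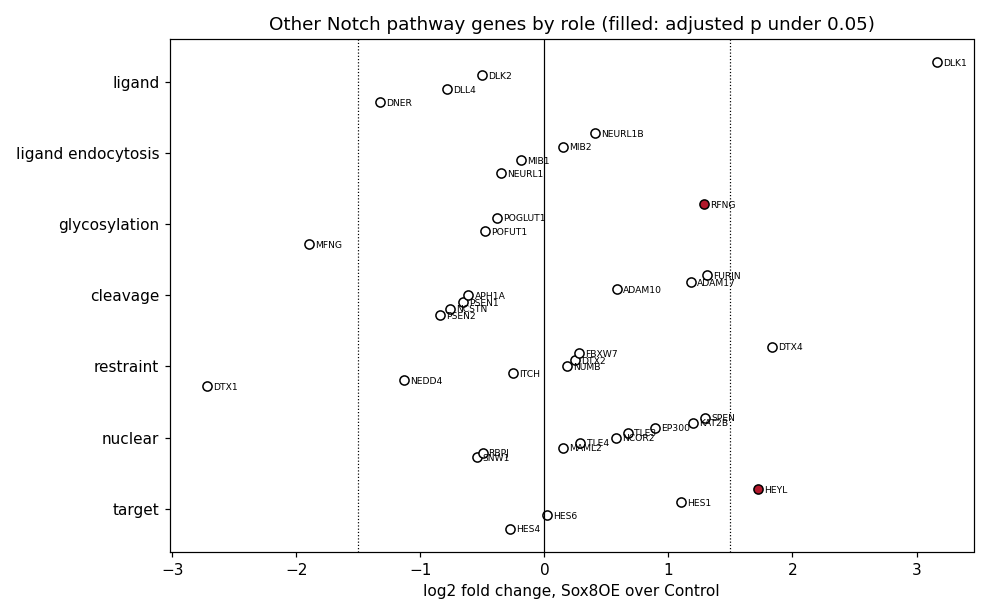
DESeq2 log2 fold change of Sox8OE over Control for 39 other Notch pathway genes, grouped by role, with filled points for an adjusted p under 0.05 and dotted lines at 1.5 in either direction. RFNG at 1.29 and HEYL at 1.72 are the filled points.

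Markers of cell types that use the pathway were read beside these values, and their part in the results was not tested. Over all genes tested, 3.32% were called higher and 0.961% lower. Of 10 surface ectoderm markers, all detected in every sample, 2 rose past both thresholds, with 9 fold changes positive and 1 negative. The negative one was TP63, with 205, 253 and 315 in Sox8OE, against 322, 597 and 468 in Control. Their summed level was 30786 to 43378 normalised counts in Sox8OE and 24452 to 28192 in Control. EPCAM alone had 27325, 10127 and 12539 in Sox8OE, against 16766, 15872 and 16317 in Control. TP63 and EPCAM are named because of these values. The 2 past both thresholds were DLX6 and KRT18, named because of their call. DLX6 had 224, 658 and 338 in Sox8OE, against 78.5, 157 and 104 in Control. KRT18 had 2852, 8927 and 5552 in Sox8OE, against 965, 2102 and 892 in Control. TFAP2A, GATA2 and GATA3, which head the list, had log2 fold changes of 1.28, 1.08 and 0.33, with DESeq2 adjusted p of 0.081, 0.077 and 0.60. Of 12 neural tube markers, 6 had a positive and 6 a negative fold change, and 3 fell past both thresholds, namely NKX2-1, LHX2 and LHX9, which are named because of their call. NKX2-1 had 15.1 to 85.7 in Sox8OE and 1271 to 1378 in Control, LHX2 had 15.4 to 189 in Sox8OE and 518 to 899.7 in Control, and LHX9 had 176 to 282 in Sox8OE and 1239 to 1831 in Control. The summed level of the 12 neural tube genes, 8741 to 14554 in Sox8OE and 11432 to 17036 in Control, overlapped between the groups, as did SOX2, with 60.3 to 144 in Sox8OE and 108 to 221 in Control.

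The proneural gene NEUROG1, which acts upstream of DLL1 in nascent neurons, was near 0, with a single count over all 6 samples. Of the 8 neurogenesis markers measured, 6 had an adjusted p and none of these was under 0.05, with 2 fold changes positive and 6 negative. The summed level was 7786 to 10953 in Sox8OE and 12322 to 13098 in Control, and these sums were apart only with DCX included. DCX, named for that reason, had 3501, 887 and 978 in Sox8OE, against 5127, 3248 and 4452 in Control. Its DESeq2 adjusted p was 0.16. Of the defining vessel markers, CDH5 and KDR were low. CDH5 had 0 to 38.7 normalised counts in Sox8OE and 15.7 to 92.3 in Control, and KDR had 20.4 to 99.1 in Sox8OE and 6.63 to 148 in Control. The summed level of the 10 vessel markers was 916, 2811 and 2654 in Sox8OE replicates 1, 2 and 3, against 1542, 1058 and 1869 in Control, and 6 of the 10 had a positive and 4 a negative fold change. In Sox8OE replicates 2 and 3 most of that sum was PECAM1, with 299, 2346 and 2074 in Sox8OE, against 617, 400.2 and 879.5 in Control, and its DESeq2 adjusted p was 0.21. The 1 vessel marker past both thresholds was FLI1, named for that reason, which was lower, with 9.47, 8.79 and 4.30 in Sox8OE, against 76.3, 77.7 and 63.7 in Control. EGFL7, named because of its values, also lay lower in every Sox8OE sample. It had 308, 159 and 202 in Sox8OE, against 648, 436 and 401 in Control, at a DESeq2 adjusted p of 0.083.

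Head mesenchyme markers had a summed level of 2203 to 2546 in Sox8OE and 3009.6 to 3811 in Control, with 7 fold changes positive and 3 negative. Of the 11, 3 passed both thresholds, all lower, 1 more had an adjusted p under 0.05 and was higher, and 1 was at 0 in every sample. The 3 were TWIST1, PDGFRA and ALX1, named because of their call, and the higher one was MEOX1, named because of its adjusted p. MEOX1 had 196, 341 and 183 in Sox8OE, against 74.1, 95.7 and 97.8 in Control. PRRX1 had 78.4, 379 and 199 in Sox8OE, against 64.1, 117 and 72.9 in Control, at a DESeq2 adjusted p of 0.18. PDGFRA had 360, 136 and 305 in Sox8OE, against 1140, 706 and 856 in Control. ALX1 had 76.7, 7.69 and 48.4 in Sox8OE, against 1165, 1013 and 712 in Control. The lower summed level in Sox8OE rested on PDGFRA and ALX1. Neural crest markers had 15326 to 28824 in Sox8OE and 13091 to 16940.3 in Control, with 4 fold changes positive and 4 negative. None of the 8 passed both thresholds. SOX10, which the paper also counts among known otic factors, was higher at a DESeq2 adjusted p of 0.032. TFAP2B was lower in every Sox8OE sample, with 4150, 4110 and 3511 against 5278, 5874 and 5418 in Control, at an adjusted p of 0.26. Of 9 otic markers measured, 8 had an adjusted p and 2 rose past both thresholds, with 8 fold changes positive and 1 negative. The negative one was SPRY2, with 7595, 982 and 927 in Sox8OE, against 9646, 8588 and 9074 in Control. It had no p-value or adjusted p, which DESeq2 withheld from genes flagged for an outlying count. The summed level of the 9 was 38796 to 90454 in Sox8OE and 41000.5 to 43335 in Control. CLDN1 alone had 66979, 27876 and 21995 in Sox8OE, against 28613, 29065 and 27668 in Control. SPRY2 and CLDN1 are named because of these values. LMX1A, the gene after which the enhancer used for the sort is named, had 457, 1573 and 1091 normalised counts in Sox8OE, against 49.7, 102 and 64.6 in Control. SOHO-1, the other called otic gene, had 9839, 9718 and 8466 in Sox8OE, against 345, 960.5 and 529.8 in Control, so Sox8OE replicate 1 was the lowest of its group at LMX1A and the highest at SOHO-1.

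Without Sox8OE replicate 1, an alternative added after the data had been seen, the markers past both thresholds were 3 higher and 0 lower of 10 for surface ectoderm, 3 higher and 1 lower of 9 for otic, 2 higher and 3 lower of 12 for neural tube, and 0 higher and 1 lower of 8 for neurogenesis. They were 1 higher and 1 lower of 10 for vessel, 2 higher and 4 lower of 11 for head mesenchyme, and 1 higher and 0 lower of 8 for neural crest, beside 18.2% of all genes in that fit.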

How the data were processed

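The deposited table held raw counts per gene for 6 samples, made by the authors from reads that were trimmed with Trim Galore, aligned to the chicken genome and counted with featureCounts, per the labels and the study's methods. Whether strand was used and how reads shared by several genes were counted are not given in the sources used here.

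Counts were fitted with DESeq2 1.42.0 in R 4.3.3 over all 24356 genes with group as the only term, and Wald p-values were adjusted by the Benjamini-Hochberg method. Of these, 2945 genes had no counts and 5379 others had no adjusted p. A gene was called at an adjusted p under 0.05 with an absolute log2 fold change over 1.5, as in the study. Of 137 listed gene names, 20 were not matched and 2 were matched through a RefSeq synonym. Alternatives were edgeR 4.0.16 quasi-likelihood, limma 3.58.1 voom with and without sample quality weights, other scalings and filters, a replicate block, and each sample left out. Fits were tested on simulated data. No samples were near-duplicates.

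The 10 genes and all lists were chosen with earlier results of these data known. All 10 were named. Of the other pathway genes, DLL4, MFNG, RBPJ, HES1 and HES4 were named whatever their values, along with those at an adjusted p under 0.05, up to 12. Of each marker list, up to 3 defining genes were named, and exceptions are stated as such.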

Additional observations from a re-analysis of the deposited data

How the results depend on the processing

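The log2 fold changes of DLL1, JAG1, JAG2, NOTCH1, LFNG, HES5, HEY1, HEY2 and NRARP kept their sign in every alternative. NOTCH2 reversed to 0.0626 with sample quality weights and to 0.13 with total counts, and ranged from -0.255 to 0.0908 over the fits without 1 sample. The scarce genes also reversed: MFNG was 2.01 with sample quality weights and -5.57 to 0.457 without 1 sample, and DLL4 was -2.12 to 0.24 without 1 sample. Causes were not tested.

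Of the 10 genes, 0 passed both thresholds and 1 had an adjusted p under 0.05, and of the other pathway genes 1 and 2 did, beside 686 of all genes past both. With edgeR these 5 counts were 0, 0, 0, 0 and 41, and with limma voom 0, 0, 0, 0 and 33. With sample quality weights they were 1, 7, 7, 22 and 2974, with 50.2% of all genes at an adjusted p under 0.05, and with total counts 1, 2, 3, 4 and 1056, with 8.64%. TMM factors, and likewise no independent filtering, left 1 other pathway gene with an adjusted p under 0.05 instead of 2. Without 1 sample the counts ranged over 0 to 1, 0 to 6, 0 to 8, 0 to 19 and 248 to 3050, each reaching its highest value without Sox8OE replicate 1. Of the 10 genes, those whose groups did not overlap numbered 4 to 9 in those fits. The 9 came without Sox8OE replicate 1, where 60.9% of all genes tested had groups that did not overlap. For the other fits without 1 sample that share was not computed. Groups of 2 and 3 samples also part more easily than groups of 3, so the range is description only. NRARP passed both thresholds with sample quality weights, total counts or a replicate block, and without Sox8OE replicate 1 or Control replicate 2. Total counts moved the median log2 fold change of all genes to 0.29, against 0.08 with DESeq2 size factors.

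With a replicate block the counts were 1, 5, 2, 8 and 1274, with 18.6% of all genes at an adjusted p under 0.05. Deviations of same-numbered samples correlated at 0.30, 0.31 and 0.072 across 15005 genes. Sox8OE replicate 2 with Control replicate 1 gave -0.29, and Sox8OE replicate 1 with Control replicate 2 gave -0.28. Sox8OE replicate 3 gave 0.085 with Control replicate 2, little more than with its own number. These values do not settle whether the numbers pair the samples. The labels do not say so, and pairing was not assumed in the main fit.

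With 3 samples in each group, 1 of which stood apart, intervals were wide: that of NOTCH1 ran from 0.21 to 1.95. DLL4 and MFNG had few counts and a wide spread between replicates.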
